A study of Rattus norvegicus with 28 samples.

Results

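Brain RNA of female rats at estrus was set against that of females at pre-estrus, with both inbred strains of the study in one comparison. Libraries were chosen by their labelled stage: 16 of the 28 libraries were used, 8 at estrus and 8 at pre-estrus, and each stage held 4 BN-Lx/Cub and 4 SHR/OlaIpcv females. The strain SHR/OlaIpcv develops hypertension spontaneously, and BN-Lx/Cub descends from Brown Norway rats. Per the labels the rats had not been exposed to alcohol, and neither another treatment nor an age is stated. Titles number the libraries as biological replicates of brain, so each was taken as a separate animal. This includes BN-Lx pre-estrus replicates 7a and 7b, which share a replicate number, and the labels do not say how they are related. The extraction text shared by all libraries describes male rats and does not say whether brains were pooled. Post-estrus females (8 libraries) and males (4 libraries) entered only an alternative fit and the levels given at the end of the gene descriptions.

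In the rat, ovarian estradiol climbs in the days before ovulation, sets off the surge of luteinizing hormone, and falls as the animal enters estrus, while progesterone peaks around the surge. Both steroids act in the brain through receptors that regulate transcription, and they are best known there for changing synapse density in the hippocampus and signalling in the hypothalamus. The sources used here do not say how pre-estrus was staged. The comparison asked which RNAs of the whole brain differ between these stages irrespective of strain.

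The files give genes by Ensembl identifier only, and none of the identifiers was matched to a gene name, so the roles of the genes below and the brain markers of the tissue label could not be looked up. In each fit the identifiers given are the 2 with the smallest p in each direction among genes averaging at least 1 CPM, with the covariate's own gene left out for the share term (CPM is a count scaled to a common library size, with TMM factors that make the bulk of genes comparable between libraries). In whole tissue, fewer cells of a type and less RNA per cell cannot be told apart.

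Total counts ran from 45382641 to 70752736 per library at estrus and from 44205298 to 72654004 at pre-estrus. The libraries were dominated by one RNA. ENSRNOG00000043866, a gene of 1571 bases in the authors' files, took 25.1% ± 4.52 of the gene counts at estrus and 26.8% ± 5.88 at pre-estrus (SD, n = 8 each). The next most abundant, ENSRNOG00000030478 (958 bases), averaged 5.92%. Labels of the libraries carry the suffix b35 or b37, whose meaning is not stated, and each strain-by-stage group holds 2 libraries of each. A long number in the sample descriptions, also without a stated meaning, was not balanced. All SHR pre-estrus libraries carry 201066, and among SHR estrus libraries only replicate 6 does.

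The share of ENSRNOG00000043866 varied more within the stages than between them. In BN-Lx it was 34.1%, 25.8%, 22.3% and 19.7% at estrus (replicates 2, 4, 8 and 9), against 33.7%, 26.7%, 34.7% and 27.7% at pre-estrus (replicates 3, 5, 7a and 7b). In SHR it was 22.0%, 26.8%, 22.7% and 27.3% at estrus (replicates 11, 5, 6 and 9), against 17.7%, 26.1%, 27.7% and 20.0% at pre-estrus (replicates 10, 11, 12 and 8). The stages overlapped in both strains. The mean log2 share differed by -0.08 between estrus and pre-estrus (exact permutation of stage within strain, two-sided p = 0.565, adjusted over 4 measures 0.951), with -0.29 in BN-Lx and 0.13 in SHR.

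**Figure D1:**
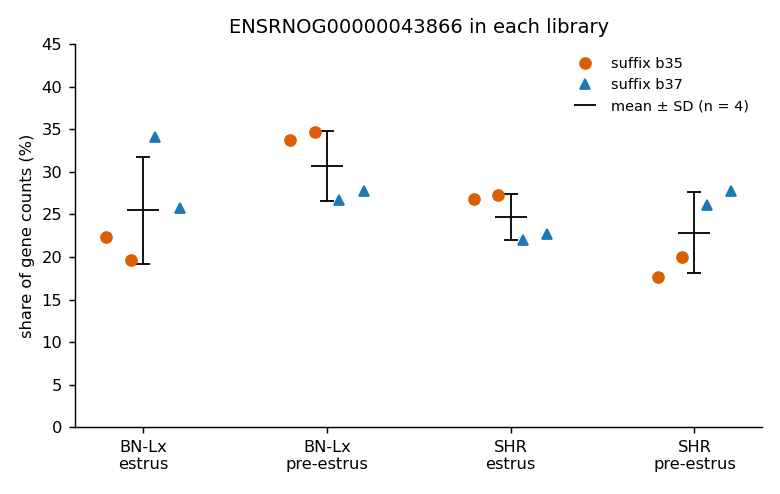
Share of gene counts taken by ENSRNOG00000043866 (y axis, percent) in each of the 16 libraries, by strain and stage, with the suffix of the library label as colour and shape. Black bars give the mean and SD of 4 libraries. Among b35 libraries the 2 BN-Lx estrus values, 22.3% and 19.7%, lie below the pre-estrus values of 33.7% and 34.7%, while the 2 SHR estrus values, 26.8% and 27.3%, lie above the pre-estrus values of 17.7% and 20.0%.

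Within the b35 libraries the stage difference in this share was -0.71 on the log2 scale in BN-Lx and 0.52 in SHR, and within the b37 libraries it was 0.13 in BN-Lx and -0.27 in SHR. The 4 values thus had no common direction, and the difference between the strains over all 16 libraries was not past the threshold (0.42 on the log2 scale, permutation of strain within stage, p = 0.16, adjusted over 4 measures 0.256). That permutation is exact only where the strains do not differ, so its p is approximate for a difference in the stage effect. The share of the 8 most abundant genes together was 43.7% ± 2.24 at estrus and 43.6% ± 3.93 at pre-estrus (exact permutation p = 0.885, adjusted 0.951). Synthetic spike-in transcripts took 3.22% ± 1.34 of all counts at estrus and 3.24% ± 0.772 at pre-estrus (exact permutation p = 0.741, adjusted 0.951), and library totals gave an exact permutation p of 0.951 (adjusted 0.951).

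No gene passed the threshold between estrus and pre-estrus. With strain as a block, edgeR's quasi-likelihood test called 0 of 17136 genes at an adjusted p under 0.05 (0%), with 447 genes (2.61%) at an unadjusted p under 0.05, of which 210 were higher and 237 lower at estrus. The smallest adjusted p was 0.24. DESeq2 called 3 genes, 1 higher and 2 lower at estrus, and limma voom with quality weights called 0. By limma, however, 1703 genes had an unadjusted p under 0.05, more than by edgeR, and the smallest adjusted p was 0.0706. Of DESeq2's calls, ENSRNOG00000053047 and ENSRNOG00000050374 are described below with their values. The third, ENSRNOG00000016793, named only because DESeq2 called it, averaged 25.6 counts at estrus and 0.375 counts at pre-estrus (DESeq2 adjusted p = 0.00363) and lay under the 1 CPM set for named genes.

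The comparison limits how large a difference averaged over the strains could be. Changes in opposite directions in the strains would cancel in it, so the intervals below do not bound the difference within either strain. Among 13999 genes averaging at least 1 CPM, the median absolute difference between the stages was 0.0695 on the log2 scale, against a median standard error of 0.124. For 86.2% of these genes the whole 95% interval was inside a 1.5-fold change up or down, and for 96.6% it was inside a 2-fold change. An estimate beyond 2-fold was found for 85 genes (0.607%), all of them short of the threshold. Precision depended on level: the median standard error was 0.375 for genes under 1 CPM and 0.0969 for genes of 64 CPM and over.

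Adding the log2 share of ENSRNOG00000043866 as a covariate narrowed the errors and left the count at 0. The spread between animals that edgeR estimated over all genes, the biological coefficient of variation, was 20.2% with the covariate and 27.6% without it. The median standard error among genes of at least 1 CPM was 0.0868 with the covariate and 0.124 without it, and the interval lay within 1.5-fold for 91.9% of genes with it. With the covariate, 842 genes (4.91%) had an unadjusted p under 0.05, of which 333 were higher and 509 lower at estrus, and the smallest adjusted p was 0.167. DESeq2 called 6 genes in this fit, 3 higher and 3 lower, and limma called 0. The higher calls include log2 estimates too extreme to read as sizes, in genes named only for that reason. ENSRNOG00000008555 had one of 13.37, although its mean count was 202 at estrus and 254 at pre-estrus. ENSRNOG00000046275 had one of 15.11, with mean counts of 177 at estrus and 48.1 at pre-estrus.

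**Figure D2:**
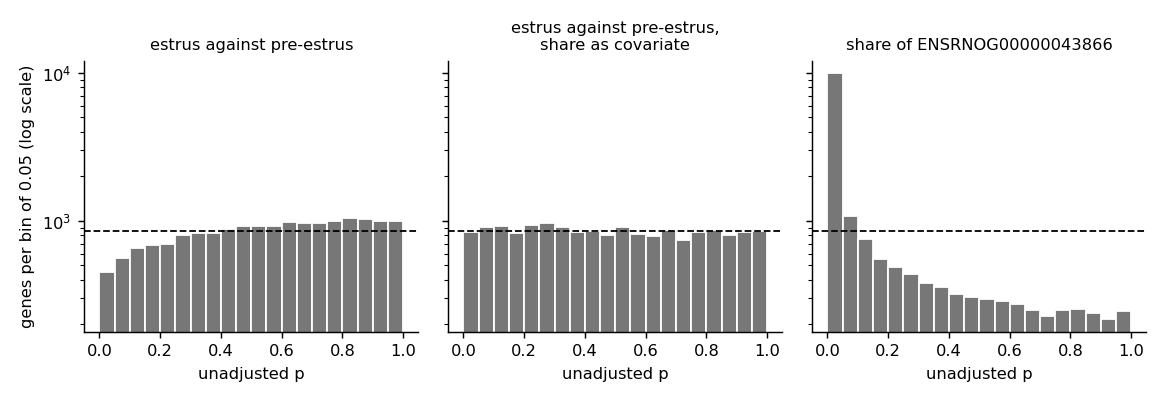
Number of genes (y axis, log scale) by unadjusted p in bins of 0.05 (x axis), for the stage difference without the covariate (left), the stage difference with the share as covariate (middle) and the share itself (right). The dashed line is the level if p-values were uniform. The lowest bin holds 447, 842 and 9948 genes from left to right.

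Most genes followed the covariate itself. In the same fit, 9141 of 17136 genes (53.3%) were called for the share, 4545 higher (26.5%) and 4596 lower (26.8%) in libraries with a larger share. The share is made from these counts and was not set by the study, so this count describes how the libraries varied and is no effect of stage. ENSRNOG00000043866 is itself among the genes called and has the smallest adjusted p (8.49e-09), which follows from its being the covariate. ENSRNOG00000048394 had a slope of 1.65 ± 0.15 log2 units per doubling of the share (SE, adjusted p = 1.92e-06), and ENSRNOG00000020479 one of 1.48 ± 0.14 (adjusted p = 1.92e-06). ENSRNOG00000028356 had a slope of -1.65 ± 0.13 (adjusted p = 9.24e-07) and ENSRNOG00000001344 one of -1.84 ± 0.15 (adjusted p = 1.49e-06). The stage difference of these 4 genes lay between -0.08 and -0.01 with the covariate. For ENSRNOG00000028356 its standard error was 0.06 with the covariate and 0.22 without it. Called genes were found at all levels, from 17.6% of genes under 1 CPM to 69.3% of genes of 64 CPM and over.

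**Figure D3:**
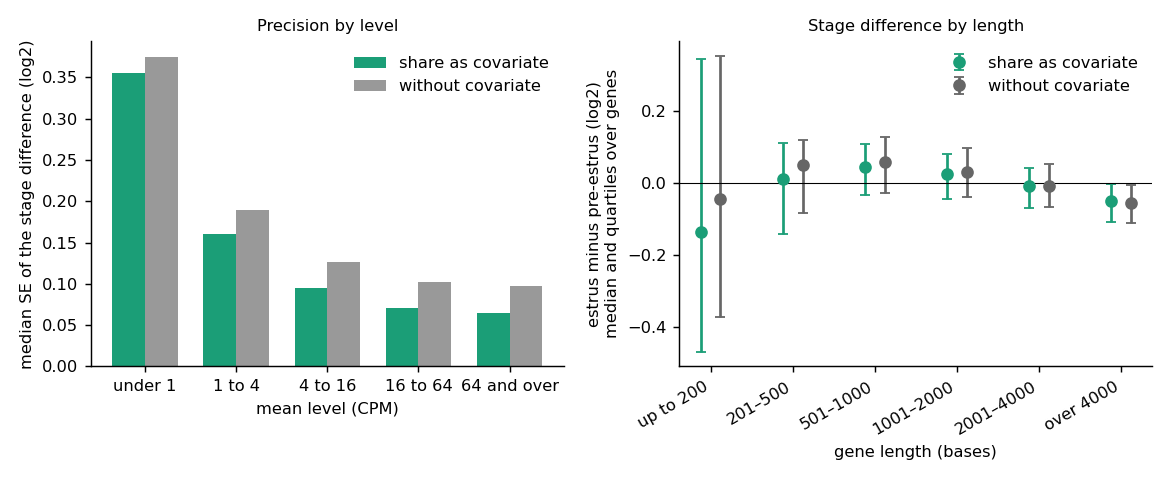
Left, median standard error of the stage difference (y axis, log2) by mean level of the gene (x axis, CPM), with and without the share as covariate. Right, estrus minus pre-estrus (y axis, log2) by gene length (x axis, bases), where points are medians over genes of at least 1 CPM and bars run from the lower to the upper quartile. The error is smaller with the covariate in each of the 5 level classes, and the median difference is 0.0467 with the covariate for genes of over 500 and up to 1000 bases and -0.0488 for genes over 4000 bases.

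ENSRNOG00000053047 (5589 bases) was a gene of low level. It shared the smallest adjusted p without the covariate with ENSRNOG00000050374, and had the smallest alone with the covariate. It had 1.21, 1.05, 0.868 and 1.04 CPM in BN-Lx at estrus (replicates 2, 4, 8 and 9), against 2.75, 2.24, 2.69 and 2.24 CPM in BN-Lx at pre-estrus (replicates 3, 5, 7a and 7b). In SHR it had 1.41, 1.21, 0.611 and 1.77 CPM at estrus (replicates 11, 5, 6 and 9), against 1.91, 2.04, 2.57 and 2.29 CPM at pre-estrus (replicates 10, 11, 12 and 8). All 8 estrus values lay below all 8 pre-estrus values. The mean was 1.15 ± 0.347 CPM at estrus and 2.34 ± 0.302 CPM at pre-estrus (SD, n = 8 each). The log2 fold change was -1.03 ± 0.18 (SE, 95% interval -1.41 to -0.65, edgeR adjusted p = 0.24). Each suffix alone gave a like value, -1.02 for b35 and -1.06 for b37. With the covariate it was -0.98 ± 0.16 (SE, edgeR adjusted p = 0.167). The call depended on the tool and on the libraries that set the error: the adjusted p was 0.000241 with DESeq2 and 0.0706 with limma without the covariate, and 0.0182 by edgeR with the covariate when all 28 libraries entered the fit. Over the 27 alternatives without the covariate the adjusted p ran from 0.000241 to 1, and over the 28 with it from 5.89e-05 to 0.714.

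ENSRNOG00000028137 (9880 bases) showed the same separation. It had 1.77, 1.23, 0.884 and 0.191 CPM in BN-Lx at estrus, against 2.30, 2.07, 3.05 and 2.83 CPM in BN-Lx at pre-estrus. In SHR it had 1.13, 1.43, 0.827 and 1.96 CPM at estrus, against 2.03, 2.81, 2.57 and 2.39 CPM at pre-estrus, with replicates in the order above. The estrus values again all lay below the pre-estrus values, and the lowest, 0.191 CPM in BN-Lx estrus replicate 9, rests on 11 counts. The log2 fold change was -1.10 ± 0.30 (SE, edgeR adjusted p = 1) without the covariate and -1.09 ± 0.22 (adjusted p = 0.524) with it, and DESeq2 with the covariate gave an adjusted p of 0.00227. Over the 28 alternatives with the covariate the adjusted p ran from 0.00227 to 0.999. The level of this gene also went with the share, with a slope of 1.63 ± 0.46 (SE, edgeR adjusted p = 0.00561). These were the 2 genes of 17136 (0.0117%) whose CPM did not overlap between the stages, both lower at estrus, and the number higher at estrus was 0. Both genes were picked for a small p in these same libraries, so the separation is a description and no added evidence. How many genes would separate by chance was not tested.

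ENSRNOG00000050374 (5258 bases) was present in some animals and near 0 in others. At estrus it had 2 counts in BN-Lx replicate 8, 9 counts in SHR replicate 6 and none in the other 6 libraries. At pre-estrus it had 965, 1181, 0 and 198 counts in BN-Lx (replicates 3, 5, 7a and 7b), or 21.6, 18.9, 0 and 3.08 CPM. In SHR at pre-estrus it had 684, 0, 512 and 467 counts (replicates 10, 11, 12 and 8), or 9.08, 0, 7.70 and 6.84 CPM. The 2 pre-estrus libraries with no count thus came from different strains and overlapped with estrus. By counting error alone, a count of 0 allows up to 3 counts, or 0.0783 CPM in BN-Lx replicate 7a, and how the authors' estimated counts treated reads shared with other genes was not tested. The log2 fold change was -8.28 ± 1.35 (SE, edgeR adjusted p = 0.24), and DESeq2 gave an adjusted p of 0.00472. Its size depended on the setting, because the estrus counts are near 0: it was -10.32 without SHR estrus replicate 6, -7.41 with b37 libraries alone, -6.82 with limma and -6.24 with the long number of the sample descriptions as a block. The edgeR adjusted p was 0.0304 without BN-Lx pre-estrus replicate 7a and 0.0396 without SHR pre-estrus replicate 11, the pre-estrus animals in which no count was found. Over its 27 alternatives the adjusted p ran from 0.00472 to 1.

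**Figure D4:**
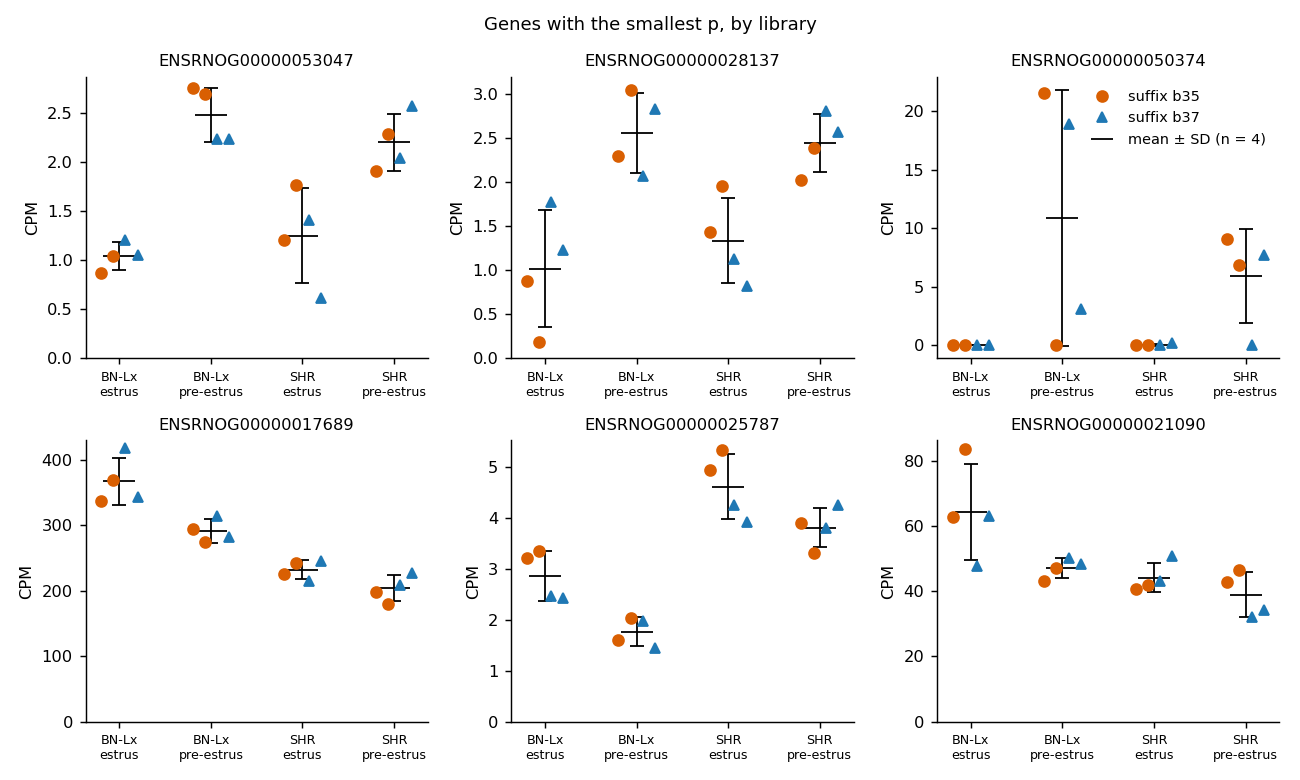
CPM (y axis) of 6 genes in each of the 16 libraries by strain and stage, with the suffix as colour and shape. The mean and SD of 4 libraries are in black. The genes are the 2 with the smallest p in each direction in either stage fit, among genes averaging at least 1 CPM. The 8 estrus values of ENSRNOG00000053047 and ENSRNOG00000028137 lie below all pre-estrus values, and ENSRNOG00000050374 is at 0 in 2 pre-estrus and 6 estrus libraries.

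The genes that leaned higher at estrus had smaller differences, and over both strains their values overlapped between the stages. ENSRNOG00000017689 (mean length 2767 bases) had 418, 343, 338 and 370 CPM in BN-Lx at estrus, against 294, 315, 274 and 283 CPM in BN-Lx at pre-estrus. In SHR it had 215, 226, 246 and 243 CPM at estrus, against 199, 209, 228 and 180 CPM at pre-estrus. The BN-Lx values did not overlap between the stages and the SHR values did, and BN-Lx lay above SHR throughout. This gene and ENSRNOG00000025787, described next, were picked for a small p in these same libraries. Their separation within BN-Lx is a description, and how many of all genes separate within a single strain was not counted. The log2 fold change was 0.26 ± 0.07 (SE, edgeR adjusted p = 1) without the covariate and 0.27 ± 0.06 (adjusted p = 0.946) with it.

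ENSRNOG00000025787 (1650 bases) averaged 2.86 ± 0.491 CPM at estrus and 1.77 ± 0.283 CPM at pre-estrus in BN-Lx, and 4.61 ± 0.64 CPM at estrus and 3.81 ± 0.39 CPM at pre-estrus in SHR (SD, n = 4 each). In BN-Lx its values did not overlap, with 2.42 to 3.35 CPM at estrus and 1.45 to 2.03 CPM at pre-estrus, and in SHR they did, with 3.92 to 5.32 CPM at estrus and 3.30 to 4.24 CPM at pre-estrus. Its log2 fold change was 0.48 ± 0.13 (SE, edgeR adjusted p = 1), with 0.66 among b35 and 0.29 among b37 libraries. ENSRNOG00000021090 (2881 bases) averaged 64.2 ± 14.8 CPM at estrus and 47.1 ± 3.1 CPM at pre-estrus in BN-Lx, and 44.1 ± 4.54 CPM at estrus and 38.9 ± 6.87 CPM at pre-estrus in SHR (SD, n = 4 each), and its values overlapped between the stages in both strains. Its log2 fold change was 0.25 ± 0.06 with the covariate (SE, edgeR adjusted p = 0.946), and its level was lower where the share was larger, with a slope of -0.72 ± 0.12 (SE, adjusted p = 7.5e-05).

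Levels in the other animals, scaled over all 28 libraries, are given as a description. ENSRNOG00000053047 ran from 1.47 to 2.4 CPM in the 8 post-estrus females, with a median of 1.82, and from 1.12 to 2.91 CPM in the 4 males. ENSRNOG00000028137 ran from 1.44 to 2.19 CPM at post-estrus, with a median of 1.83, and from 1.09 to 3.33 CPM in males. Both thus lay between or across the estrus and pre-estrus ranges. ENSRNOG00000050374 reached 33.0 CPM at post-estrus (SHR replicate 13, 2274 counts), had no count in 3 of the 8 post-estrus libraries, and in males had 29 counts in one BN-Lx animal and none in the others.

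The stage difference was not detected to depend on strain. The interaction of stage and strain called 0 of 17136 genes (0%) by edgeR, with 264 (1.54%) at an unadjusted p under 0.05 and a smallest adjusted p of 0.916. DESeq2 called 2 genes, and limma called 0, with 1588 at an unadjusted p under 0.05 by limma. DESeq2's calls, named only for that reason, had log2 estimates too extreme to read as sizes. ENSRNOG00000036701 had one of -27.45 (DESeq2 adjusted p = 0.000384), with mean counts of 673 at estrus and 677 at pre-estrus. ENSRNOG00000047167 had one of 30 (DESeq2 adjusted p = 1.4e-10), with mean counts of 324 at estrus and 2210 at pre-estrus. The edgeR adjusted p of both was 0.916. For 34.1% of the 13999 genes the 95% interval of the interaction lay within 1.5-fold, and for 72.5% within 2-fold; intervals of the other genes were wider. Within the suffixes the counts parted. The b35 libraries alone, with 2 animals per group, called 7250 genes, 3412 higher and 3838 lower, and the b37 libraries alone called 0. Among b35 libraries both SHR estrus animals carry the long number 200317 and both SHR pre-estrus animals carry 201066. Stage and long number therefore cannot be told apart in SHR within b35. The share of ENSRNOG00000043866 moved in opposite directions in the strains within b35, as given above. With the share as covariate, the b35 libraries alone called 1 gene, the b37 libraries alone 18, and all 16 libraries 0, with 604 genes at an unadjusted p under 0.05. Within b35 the log2 share differed between the stages by -0.71 in BN-Lx and 0.52 in SHR, so the covariate nearly coincided with the interaction. That fit could hardly tell the 2 terms apart, and no conclusion is drawn from its lower count.

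The stage estimates of the strains were also set side by side over the 13999 genes of at least 1 CPM. They rest on different animals but come from a single fit with shared scaling factors and spread estimates. With the covariate the strains also share its slope, so those estimates are not independent. Without the covariate 40.1% of genes had the same direction in SHR and BN-Lx, with a Spearman rho across genes of -0.229 and a Pearson r of -0.00115. With the covariate 49.4% had the same direction, with a rho of 0.000155 and an r of -0.0159. Genes share their libraries and are not independent, so these values carry no p. The median absolute difference was 0.0736 in SHR and 0.111 in BN-Lx with the covariate, and 0.0817 in SHR and 0.144 in BN-Lx without it.

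**Figure D5:**
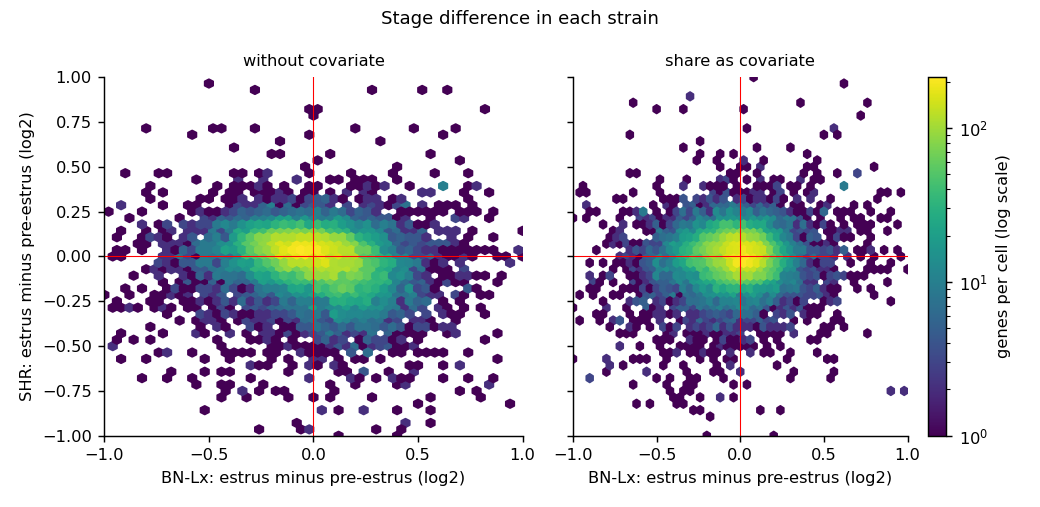
Estrus minus pre-estrus on the log2 scale in BN-Lx (x axis) and SHR (y axis) for genes of at least 1 CPM, without the covariate (left) and with the share as covariate (right). Colour gives the number of genes per cell on a log scale, and 168 genes on the left and 165 on the right lie outside the axes. The cloud slopes downward on the left (rho -0.229) and has no slope on the right (rho 0.000155).

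The stage difference of the median gene varied with gene length and had no single trend. Without the covariate it was -0.0443 on the log2 scale for the 139 genes of up to 200 bases, 0.0509 for the 343 genes of over 200 and up to 500 bases, and 0.0582 for the 1094 genes of over 500 and up to 1000 bases. It was 0.0316 for the 4306 genes of over 1000 and up to 2000 bases, -0.00652 for the 5569 genes of over 2000 and up to 4000 bases, and -0.0552 for the 2548 genes over 4000 bases. The shortest and the longest genes thus both had a median below 0, and the classes of over 200 and up to 2000 bases had one above 0. With the covariate the medians were, from the shortest class to the longest, -0.135, 0.0129, 0.0467, 0.0264, -0.00665 and -0.0488. For values per animal, the median of the genes over 4000 bases minus that of the genes of over 500 and up to 1000 bases was taken in each library after centring each gene. These classes had the lowest and the highest median without the covariate and were chosen for that, so the contrast is a description with no test. It averaged -0.0551 ± 0.0956 at estrus and 0.0546 ± 0.07 at pre-estrus (SD, n = 8 each), and the stages overlapped, from -0.175 to 0.0887 at estrus and from -0.0354 to 0.201 at pre-estrus. The difference was -0.25 in BN-Lx and 0.06 in SHR within b35, and -0.11 in BN-Lx and -0.14 in SHR within b37.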

How the data were processed

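Total RNA of rat whole brain was sequenced in paired-end stranded libraries after removal of ribosomal RNA, per the labels' protocols. The deposited matrix holds expected counts per gene, in which ambiguous reads are split among genes by likelihood, made with cutadapt and RSEM per the submitters' processing notes, with no version given. Aligner, genome build and annotation were not given in the sources used here. Matrix and per-sample files differed by at most 0.5 counts. Sex was taken from each sample's own label. Gene lengths are other values of those files, deposited by the authors.

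Expected counts were rounded, and the 92 spike-in rows left out of fits. Of 32623 genes, filterByExpr (count minimum 10) kept 17136, of which 131 had counts identical to another row, and none of those is named. edgeR 4.0.16 in R 4.3.3 fitted the 16 libraries with TMM factors, a robust quasi-likelihood test and Benjamini-Hochberg adjustment over all genes, with calls at an adjusted p under 0.05. Standard errors were derived from the F statistic. DESeq2 1.42.0 and limma 3.58.1 were alternatives. Scripts were tested on simulated data. Replicates of a group were no copies (chi-square per degree of freedom 30.6 to 676 over 24 pairs).

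The RefSeq table holds 0 Ensembl identifiers, so the 533 entries of the gene lists matched 0 genes and were not counted, and no sequence could be assigned. The named-gene rule was applied without symbols, at 2 genes per direction. The comparison, lists and rule were chosen with earlier results of these data known.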

Additional observations from a re-analysis of the deposited data

Results flagged for a closer look

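In 44 sets of 4 libraries checked for a single distant value, 3 were picked out, and chance picks out about 1 in 20. SHR pre-estrus replicate 10 had 4.35% of its counts in spike-ins, where the nearest other library of its group had 3.34%. ENSRNOG00000050374 had 0.0321 CPM in BN-Lx estrus replicate 8 and 0.162 CPM in SHR estrus replicate 6, where the other libraries of those groups had 0. With all other values at 0 any count is picked out, so the rate of about 1 in 20 does not apply to these sets. The 4 library measures were the share of ENSRNOG00000043866, of the 8 most abundant genes and of spike-ins, and the library total. For none of them did the stage difference differ between the strains at a permutation p under 0.05. Strain was permuted within stage, which is exact only where the strains do not differ. The lowest such p was 0.0853, for the library total.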

How the results depend on the processing

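The stage comparison called 3 genes with DESeq2 and 0 to 1 without each library in turn, and 0 under the other alternatives. With the covariate it called 1 gene in the fit of all 28 libraries, 6 with DESeq2 and 42 with b37 libraries alone (34 higher, 8 lower), and 0 elsewhere, each library left out included. The interaction called 2 genes with DESeq2 and 7250 with b35 libraries alone, and with the share as covariate, an alternative chosen after seeing the data, 1 in b35 and 18 in b37 libraries alone. It called 0 without each library. The cause was not tested. In b35 libraries alone the interaction can hardly be told apart from the share, nor the SHR stage difference from the long number. The count for the share ran from 8179 to 9036 without each library. Of the library measures, the log2 difference turned among b37 libraries alone to -0.02 for the 8 most abundant genes, 0.2 for spike-ins and 0.07 for totals. Without each library it ran from -0.01 to 0.02, -0.22 to 0.08 and -0.07 to 0.04, with no exact permutation p under 0.05. Among libraries of 1 suffix this test cannot give a p under 0.0556, so it could not pass the threshold there. The length contrast, a description, was -0.09 in b35 and -0.13 in b37 libraries alone and ran from -0.13 to -0.09 without each library. None of the 6 named genes changed direction in any alternative. With the long number of each sample description, whose meaning is not stated, as a block, 2422 genes had an unadjusted p under 0.05 without the covariate and 1329 with it, and 0 were called. In that block fit the SHR libraries inform the stage difference only through number 201066, where SHR estrus replicate 6 is the only estrus library. No paired analysis was possible because estrus and pre-estrus libraries of a strain share at most 1 replicate number. Depth limits genes under 1 CPM most.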

Other observations

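The authors' mean transcript length per gene, which shifts when the estimated mix of a gene's transcripts shifts, was tested as another readout after the data were seen. Of 3644 genes with a mean of at least 100 counts and a variable length, limma called 0 for stage (113 at an unadjusted p under 0.05) and 0 for stage with the share as covariate (156). In the same fits it called 79 for strain and 520 for the share. A separate fit called 0 for the interaction of stage and strain.

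The relative amounts of the spike-in RNAs split the 16 libraries into sets of 8 and 8. Over 34 spike-ins with at least 200 counts in every library, the first principal component held 95% of the variance, and the gap between the sets was 6.55 of a range of 7.13. One set held 5 estrus and 3 pre-estrus libraries and the other 3 estrus and 5 pre-estrus libraries. The mean log2 difference between the sets ran from -1.43 to 1.61 over the spike-ins. Spike-ins entered no fit.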
